A study of Mus musculus with 4 samples.

Results

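The genes described here are 10 heat shock protein genes of the cytosol and the mitochondria, taken by symbol from the 32285 genes of the count matrices. They are Hspb1, Hsph1, Hspa1a, Hspa1b, Hspa8, Hsp90aa1, Hsp90ab1, Dnajb1, Hspd1 and Hspe1. All 10 were found, and all 10 were among the 13487 genes with enough counts to be tested. Hspb1 was singled out as the gene near absent in control cells, so its difference between groups is given as a description, with no test.

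The cells were CD8+ T cells from the spleens of gBT-I.CD45.1 tg mice, whose transgenic T cell receptor recognises a peptide of herpes simplex virus glycoprotein B. Spleen cells of 2 mice were activated with B6 splenocytes pulsed with the peptide gB498-505 in the presence of LPS and were expanded in recombinant human IL-2. From day 3 to day 5 the cultures received 0.5 mM sodium butyrate or PBS (control), and on day 6 living cells with CD8 and Vα2 were sorted into droplets. Each group holds 2 libraries, 1 from each mouse, so butyrate 1 and control 1 come from 1 mouse, and all 4 libraries belong to batch 1. All cells of both groups thus had the same receptor, were activated in the same way and were grown in IL-2, and every value describes cells in culture. Gut bacteria make butyrate, a short-chain fatty acid that inhibits histone deacetylases.

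Heat shock proteins are chaperones, which bind unfolded proteins, keep them from clumping and help them fold. HSP70 proteins act with HSP40 partners and with exchange factors such as HSP110, HSP90 completes the folding of kinases and receptors, and HSP60 with HSP10 forms the folding chamber of mitochondria. Some of these genes are made in every cell, and others are switched on by heat shock factors that bind repeated GAA units in their promoters. Activated T cells make much new protein while they divide.

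Libraries held 64388093 to 76522004 UMIs (unique molecular identifiers, 1 per captured RNA molecule). The control libraries gave 2059 and 2632 cells that passed the filters, the butyrate libraries gave 2560 and 2664, and any pair of libraries shared 1 to 6 of these barcodes. All 10 CD8 T cell markers were detected in the kept cells. Macrophage and monocyte markers summed to between 0.0149 and 0.155 CPM, with 4 of 8 at 0 in every library. Markers of other cell types moved both ways. The 7 B cell markers summed to 136 and 138 CPM in control, against 48.0 and 48.3 CPM with butyrate, mostly Ighm, which fell by 1.72, while Cd79b rose by 0.50 (339 to 569 UMIs a library), Cd79a had 3 to 5 UMIs a library and Pax5 had none. The 9 dendritic cell markers summed to 33.0 and 27.9 CPM in control, against 40.6 and 46.9 CPM with butyrate, and 5 of 6 tested passed as higher, H2-Eb1 by 4.60 from 5 and 4 UMIs to 111 and 125. Clec9a and Siglech had no UMI. Cd4 rose by 4.03 from 3 and 1 UMIs to 33 and 40, Klrb1c by 1.24 and Hba-a1 by 1.95 from 7 and 15 UMIs to 51 and 39. The part of these transcripts in the results on heat shock genes was not tested.

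Levels are given as CPM, which are UMIs per 1000000 UMIs, scaled by TMM. The TMM factor is set on the assumption that most genes do not differ between libraries. Where 4 levels are given in a row, both control libraries come first and both butyrate libraries next. Because the 3' ends of transcripts were counted, levels are compared between libraries and not between genes. Changes are log2 fold changes of butyrate over control from edgeR, with the standard error (SE), and an adjusted p under 0.05 over all 13487 genes counted as passing. Of the 9 genes other than Hspb1, 6 passed as higher in butyrate, 1 passed as lower and 2 did not pass. Among all tested genes, 36.0% passed as higher and 35.7% as lower. The median log2 fold change of the 9 genes was 0.23, against -0.01 for all tested genes, whose median absolute change was 0.41. Several of the heat shock genes therefore passed with changes smaller than that of a typical tested gene.

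**Figure D1:**
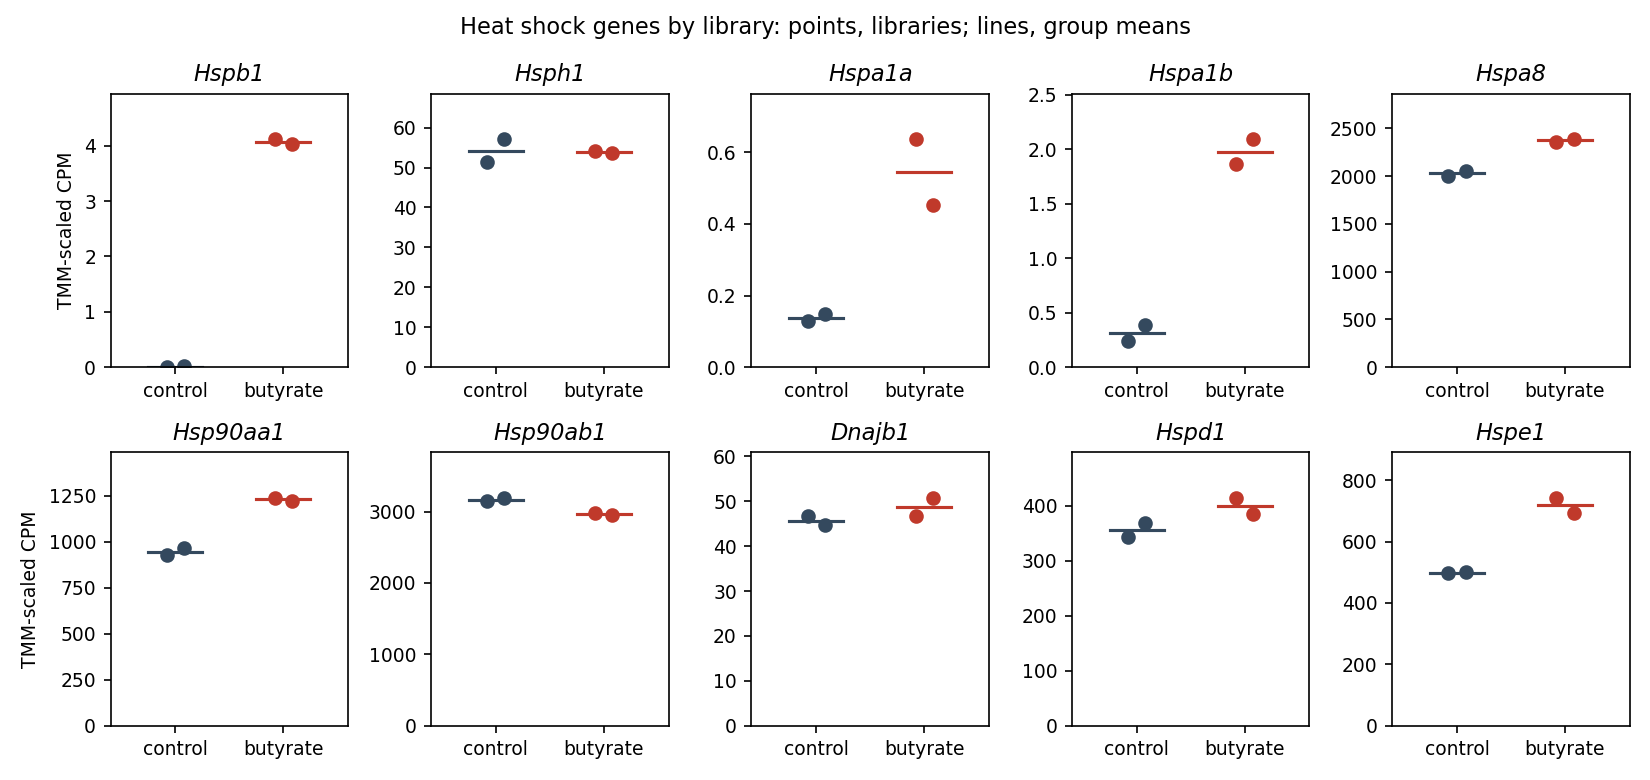
Level of each heat shock gene (TMM-scaled CPM, linear axes from 0) in the 2 control and 2 butyrate libraries; points are libraries and lines are group means. Hspb1 was at 0 and 0.0149 CPM in control and at 4.12 and 4.03 CPM in butyrate, and the groups overlapped for Hsph1 and Dnajb1.

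The promoters of the genes that differ most between groups are shown first. They were searched for the GAA units that heat shock factors bind. Sequences are the 250 bases before each gene's RefSeq start (build GRCm38.p6), 5' to 3' on the gene's strand. Capitals mark each pair of units in the arrangement GAANNTTC or TTCNNGAA, both of which read the same on either strand; pairs that overlap run together. Windows are chr5:135887669-135887918 (+) for Hspb1, chr17:34972157-34972406 (-) for Hspa1a, chr17:34959239-34959488 (-) for Hspa1b, chr1:55087898-55088147 (+) for Hspe1 and chr5:149636316-149636565 (-) for Hsph1, which is shown for contrast because its level did not pass.
Hspb1: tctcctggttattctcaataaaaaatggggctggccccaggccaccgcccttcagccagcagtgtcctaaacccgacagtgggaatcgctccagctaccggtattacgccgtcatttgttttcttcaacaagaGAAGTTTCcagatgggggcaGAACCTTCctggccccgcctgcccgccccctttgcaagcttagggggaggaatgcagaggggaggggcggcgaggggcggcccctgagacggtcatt
Hspa1a: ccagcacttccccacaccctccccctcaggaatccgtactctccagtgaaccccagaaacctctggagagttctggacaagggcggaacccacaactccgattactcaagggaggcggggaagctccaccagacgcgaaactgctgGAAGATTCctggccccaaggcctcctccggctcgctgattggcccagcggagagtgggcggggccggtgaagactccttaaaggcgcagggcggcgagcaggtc
Hspa1b: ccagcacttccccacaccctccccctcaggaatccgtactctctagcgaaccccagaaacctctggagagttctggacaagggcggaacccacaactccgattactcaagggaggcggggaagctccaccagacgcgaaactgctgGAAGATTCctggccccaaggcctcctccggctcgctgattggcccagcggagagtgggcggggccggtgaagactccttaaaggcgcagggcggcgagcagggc
Hspe1: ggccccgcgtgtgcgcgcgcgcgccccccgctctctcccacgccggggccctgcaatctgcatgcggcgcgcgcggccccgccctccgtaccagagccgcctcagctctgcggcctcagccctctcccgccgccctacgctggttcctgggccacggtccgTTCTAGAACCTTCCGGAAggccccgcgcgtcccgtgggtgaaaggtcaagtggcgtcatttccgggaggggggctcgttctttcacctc
Hsph1: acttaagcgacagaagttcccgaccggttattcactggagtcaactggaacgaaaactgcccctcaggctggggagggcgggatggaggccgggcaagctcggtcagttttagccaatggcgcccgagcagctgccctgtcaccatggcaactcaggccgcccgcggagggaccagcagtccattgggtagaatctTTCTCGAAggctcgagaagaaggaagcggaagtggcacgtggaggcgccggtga

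Windows were matched for 7 of the 10 genes, 10 windows in all. A pair of units was found in 6 of these 7 genes, against 14.5% of all 27025 genes, and in 7 of the 10 windows, against 12.8% of all 32851 windows. The windows are not independent: those of Hspa1a and Hspa1b are near-identical, Hspd1 and Hspe1 share their pairs, and the windows of Hsph1 overlap. Hspb1 had 2 pairs, GAAGTTTC from 117 to 110 and GAACCTTC from 97 to 90 bases before the start. Hspa1a and Hspa1b each had 1, GAAGATTC, from 104 to 97 bases before the start. Their windows differed at 3 of 250 bases (C44T, T47C and T249G, Hspa1a first, positions counted from 1 at the 5' end of the window), so that 98.8% of bases were identical. Hspe1 and Hspd1 lie head to head on chromosome 1, overlap by 112 bases at their starts and share 215 bases of a window. In that shared stretch, 3 pairs overlap to give 2 matches to the longer element of 3 alternating units, which was found in 0.466% of all windows. Hsph1 had 1 pair, TTCTCGAA, and neither window of Dnajb1 had any. CCAAT (33.8% of all windows, either strand) was found in the windows of Hsph1, Hspa1a, Hspa1b and Dnajb1, and GGGCGG (32.7%) in all 10 windows. TATAAA, in 12.4% of all windows on either strand, was in none of the 10. A match describes the letters in the window and does not show that a factor binds there.

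Hspb1 encodes HSP27, a small heat shock protein that holds unfolded proteins and associates with actin (ENSMUSG00000004951, chromosome 5, 135887919 to 135889563, plus strand, GRCm38). The control libraries held 0 and 1 of its UMIs, the butyrate libraries 265 and 258. The levels were 0, 0.0149, 4.12 and 4.03 CPM, so that the control libraries were at or next to 0 and the butyrate libraries lay close together. The ratio of the rates was 431, with a 95% counting interval of 77.1 to 17070. It rests on 1 UMI of 113500725 in control against 523 of 137610558 in butyrate. This interval covers only the counting of UMIs, pooled over the libraries of each group, and not the spread between mice. Because Hspb1 was chosen as near absent in control, the interval is no test of a difference. Among the 17465 genes with at most 3 control UMIs in all, 31 had more than 100 butyrate UMIs, and Hspb1 ranked 3 by that number.

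Few butyrate cells carried an Hspb1 UMI. With every cell thinned at random to 8000 UMIs, the share of cells with a UMI was 3.59% (exact 95% interval 2.90 to 4.40) in butyrate 1 and 2.73% (2.14 to 3.44) in butyrate 2. It was 0 of 1988 and 0 of 2520 cells in control, which allows shares of up to 0.151% and 0.119% (3 cells of the total); the exact intervals reach 0.185% and 0.146%. At their own depth, 8.95% and 8.0% of butyrate cells carried a UMI, as did 0 of 2059 and 1 of 2632 control cells. Most positive cells held 1 UMI, and 1 cell of butyrate 2 held 14. Droplets without a cell, those with at most 100 UMIs, held 10 and 14 Hspb1 UMIs in the butyrate libraries and 0 in both control libraries. That is 1.98 and 3.53 per 1000000 UMIs, against 3.84 and 3.76 in the kept cells before scaling. Such droplets held a mean of 4.49 and 3.08 UMIs each, and the kept cells had medians of 24816 and 23628. The part of RNA from outside the cells in their Hspb1 counts was not tested. The intervals cover counting error only.

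Cells with an Hspb1 UMI had lower means than the other cells for 9 of 9 heat shock genes in butyrate 1 and for 8 of 9 in butyrate 2. The exception was Hspa1b in butyrate 2, with means of 0.0563 UMIs in cells with and 0.0139 in cells without. In butyrate 1 they held a mean of 8.23 Hsp90aa1 UMIs at equal depth, against 8.96 in cells without, and in butyrate 2 they held 7.46 against 8.79. For Hspa8 the means were 16.2 against 17.5 in butyrate 1 and 17.0 against 17.8 in butyrate 2. Across the cells of each butyrate library, the correlation of Hspb1 with each of the other 9 genes lay between -0.0425 and 0.0531. These values come from 90 and 71 cells with a UMI and are a description. Hspa1a had a mean of 0 in these cells, against 0.00745 and 0.00238 in the others, and thus lay at the floor. How many of all genes had lower means in cells with an Hspb1 UMI was not computed. The counts therefore cannot be read as a trait of the heat shock genes, and cell cycle phase was not taken into account.

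The nearest protein-coding neighbours of Hspb1 moved in different directions. Srrm3, which ends 13147 bases before Hspb1, had 0, 0, 5 and 1 UMIs and was not tested. Mdh2, mitochondrial malate dehydrogenase, rose by 0.63 (SE 0.04, edgeR adjusted p = 6.07e-09), while Ssc4d fell by 0.77 (SE 0.13, edgeR adjusted p = 5.56e-05). Ywhag, 18846 bases beyond the gene, had a log2 change of -0.06 (edgeR adjusted p = 0.228), Styxl1 had 0.97 on 3 to 13 UMIs a library (edgeR adjusted p = 0.0852), and Zp3 had no UMI. The 5 genes whose levels were most like those of Hspb1 over the 4 libraries were Bcam, Mmp9, Cmtm8, C5ar1 and F11r, at distances of 0.152, 0.162, 0.202, 0.264 and 0.294 in log2(CPM + 1). All 5 had at most 12 UMIs in a control library and 207 to 285 in a butyrate library.

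Hspa1a and Hspa1b encode the HSP70 proteins that cells make on stress, and they lie 9951 bases apart on the minus strand of chromosome 17 (34969190 to 34972156 and 34956436 to 34959238). They are near-identical copies, so a UMI may be assigned to the wrong one. Hspa1b (ENSMUSG00000090877) had 0.239, 0.387, 1.86 and 2.09 CPM, from 13, 26, 120 and 134 UMIs. Both butyrate libraries lay above both control libraries, and the gene rose by 2.62 (SE 0.23, edgeR adjusted p = 9.48e-08). Hspa1a (ENSMUSG00000091971) had 0.129, 0.149, 0.637 and 0.453 CPM, from 7, 10, 41 and 29 UMIs, and rose by 1.95 (SE 0.36, edgeR adjusted p = 0.000160). Summed as 1 gene, the copies had 0.367, 0.536, 2.50 and 2.55 CPM and rose by 2.45 (SE 0.20, edgeR adjusted p = 3.09e-08). The increase thus does not rest on how UMIs were divided between the copies. It concerned few cells at this depth: after thinning, an Hspa1b UMI was seen in 0.302% and 0.317% of cells for control, against 1.08% and 1.46% for butyrate. Hspa1l, the testis HSP70 gene that starts 546 bases from Hspa1a, had 1 UMI in all.

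Hspa8 encodes HSC70, the HSP70 that cells make without stress (ENSMUSG00000015656, chromosome 9, 40800984 to 40810087). Its levels were 2004, 2053, 2358 and 2387 CPM, with no overlap between groups. It rose by 0.23 on the log2 scale (SE 0.04, edgeR adjusted p = 0.000177). With library totals in place of TMM, which lowers the median change of all tested genes to -0.21, the change of Hspa8 was 0.03 (edgeR adjusted p = 0.585). Hspa1a and Hspa1b together made up 0.0183% and 0.0261% of the UMIs of these copies and Hspa8 in control, against 0.106% and 0.107% with butyrate. The difference was 0.0840 percentage points (exact two-sided permutation p = 0.333, the smallest that 2 against 2 libraries can give). Other HSP70 genes are not part of this share.

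Among the partners of HSP70, Hsph1 encodes HSP110, which exchanges the nucleotide of HSP70 (ENSMUSG00000029657, chromosome 5, 149614287 to 149636376). It had 51.4, 57.1, 54.1 and 53.7 CPM, so that both butyrate libraries lay between the control libraries. Its log2 fold change was -0.01 (SE 0.05, edgeR adjusted p = 0.869). With library totals it was -0.21 (edgeR adjusted p = 0.00252), which is the median change of all tested genes under that scaling. Dnajb1 encodes the HSP40 that delivers clients to HSP70 and is made on heat shock (ENSMUSG00000005483, chromosome 8, 83608193 to 83612653). It had 46.8, 44.6, 46.7 and 50.8 CPM, with overlapping groups, and its log2 fold change was 0.09 (SE 0.05, edgeR adjusted p = 0.115). Both are known targets of heat shock factors, as are Hspa1a and Hspa1b.

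The paired HSP90 genes moved in opposite directions. Hsp90aa1 encodes the form of HSP90 that stress raises (ENSMUSG00000021270, chromosome 12, 110690605 to 110702728), and it had 930.0, 966, 1241 and 1222 CPM. The groups did not overlap, and the log2 fold change was 0.38 (SE 0.04, edgeR adjusted p = 1.24e-06). Hsp90ab1 encodes the form made at all times (ENSMUSG00000023944, chromosome 17, 45567775 to 45573271), and it had 3141, 3195, 2980 and 2949 CPM. Both butyrate libraries lay below both control libraries, and its log2 fold change was -0.10 (SE 0.04, edgeR adjusted p = 0.0494). This call for Hsp90ab1 was lost when any 1 library was left out (edgeR adjusted p between 0.0762 and 0.189). Within the pair, Hsp90aa1 took 22.8% and 23.2% of UMIs in control, against 29.4% and 29.3% with butyrate. That share needs no scaling between libraries, and it differed by 6.32 percentage points (exact two-sided permutation p = 0.333, the smallest possible).

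The mitochondrial chaperonin genes also moved unequally. Hspe1 encodes HSP10, the lid of the folding chamber (ENSMUSG00000073676, chromosome 1, 55088132 to 55091307, plus strand). It had 498, 499.9, 743 and 694 CPM, with no overlap, and rose by 0.53 (SE 0.05, edgeR adjusted p = 6.12e-08). Hspd1 encodes HSP60, the chamber itself (ENSMUSG00000025980, chromosome 1, 55077835 to 55088243, minus strand). It had 344, 369, 415 and 385 CPM and rose by 0.17 (SE 0.05, edgeR adjusted p = 0.00762), while library totals gave -0.03 (edgeR adjusted p = 0.571). The Hspd1 call was lost without control 1 (0.11, edgeR adjusted p = 0.112) and without butyrate 1 (0.11, edgeR adjusted p = 0.109). Of the UMIs of the pair, Hspd1 took 40.8% and 42.5% in control, against 35.8% and 35.7% with butyrate, differing by -5.89 percentage points (exact two-sided permutation p = 0.333, the smallest possible). Median mitochondrial shares of cells were 4.89% and 4.91% in control, against 3.93% and 4.13% with butyrate. Their part in these results was not tested beyond keeping only cells with a share under 5%, where Hspd1 had a change of 0.11 (edgeR adjusted p = 0.0597) and lost its call.

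**Figure D2:**
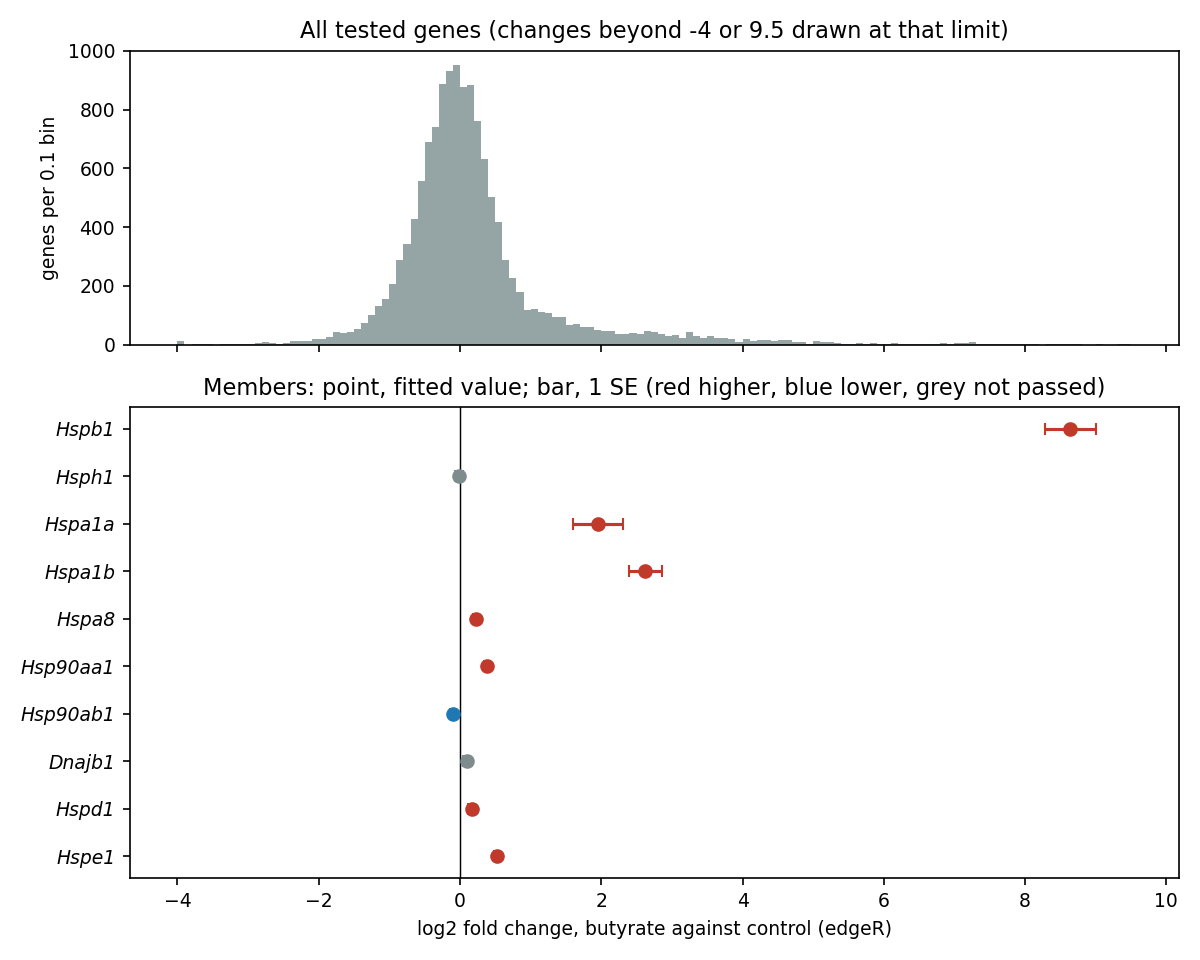
Upper panel, log2 fold changes (butyrate over control, edgeR) of the 13487 tested genes, counted per 0.1 bin; lower panel, the 10 heat shock genes with bars of 1 SE. Hspb1, Hspa1b and Hspa1a lie to the right of the bulk of genes, the value of Hspb1 being a fitted one that depends on the prior count, and the other 7 lie between -0.10 and 0.53; with library totals Hspd1 moves from 0.17 to -0.03 and Dnajb1 from 0.09 to -0.10.

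Values per cell at equal depth show how these genes were spread. The share of cells with a UMI was higher in both butyrate libraries than in both control libraries for 5 of the 9 genes other than Hspb1, and lower for 0. Among the 13487 tested genes, 29.6% were higher and 50.3% lower by the same rule. For Hspd1 the share was 77.4% and 79.2% in control, against 88.6% and 86.2% with butyrate. For Hspe1 it was 93.6%, 94.6%, 97.5% and 97.8%, and for Hsp90aa1 96.0%, 96.2%, 99.2% and 98.4%. Cells with no UMI of these genes at this depth were thus fewer in butyrate; at 8000 UMIs a cell may hold the RNA and show none. Hsp90ab1 was seen in every thinned cell, and Hspa8 in 2595 of 2596 cells of butyrate 2 and in every cell of the other libraries.

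The variance of thinned UMIs over their mean, which is 1 for pure counting noise, was lower in butyrate for Hspd1, Hsp90aa1, Hsp90ab1, Hspe1 and, by little, Hsph1. For Hspd1 it was 2.54 and 2.59 in control, against 1.72 and 1.64 with butyrate. For Hsp90aa1 it was 3.49 and 3.64 against 2.69 and 2.87, and for Hsp90ab1 3.33 and 3.33 against 2.53 and 2.50. Hspe1 had 1.81 and 1.87 against 1.62 and 1.59, and Hsph1 had 1.24 and 1.27 against 1.2 and 1.24. Hspa8 went the other way, with 3.22 and 3.28 against 3.38 and 3.49. Correlations across the cells of a library, between pairs of Hsph1, Hspa8, Hsp90aa1, Hsp90ab1, Hspd1 and Hspe1, were lower in both butyrate libraries than in both control libraries, except for Hspa8 with Hsp90aa1. For Hsp90aa1 with Hsp90ab1, r was 0.562 and 0.602 in control, against 0.369 and 0.407 with butyrate, and for Hsp90aa1 with Hspd1 it was 0.534 and 0.564 against 0.280 and 0.325. For Hspd1 with Hspe1 it was 0.354 and 0.367 against 0.277 and 0.287. Dnajb1, Hspa1a, Hspa1b and Hspb1 had r between -0.0544 and 0.0611 to each of the other heat shock genes described here. For Hspb1 this covers the butyrate libraries only, since no thinned control cell held an Hspb1 UMI. These correlations are over 1988 to 2596 cells that share a library and a fixed depth, and they are given as a description. Differences between groups in spread and in correlation were not computed for other genes. They therefore cannot be read as a trait of the heat shock genes, and the part of the mix of phases was not tested. Over the 4 libraries, the genes most like Hsp90aa1 across cells were Ncl (mean r 0.554), Set (0.488) and Hsp90ab1 (0.485), of 3650 genes compared. Those most like Hspd1 were Ncl (0.474), Hsp90aa1 (0.426) and Set (0.422), and those most like Hspa8 were Hsp90aa1 (0.275), Tuba1b (0.251) and Ncl (0.242).

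Cells were then split by cell cycle phase, called from 42 S phase and 51 G2M genes, none of them a heat shock gene described here. G1 cells, which score low for both sets, made up 15.7% and 15.5% of the thinned cells in control, against 15.2% and 17.4% with butyrate. S cells made up 20.2% and 22.1% in control, against 34.2% and 31.9% with butyrate, and G2M cells 64.1% and 62.4% against 50.6% and 50.7%. These are shares of calls from scores, and the cells near the score limits are counted further on. Each gene was also compared within each phase. Hspb1 left aside, in G1 cells 6 of the 7 genes tested passed as higher and 0 as lower (30.3% and 29.6% of all genes tested there). In S cells 5 of 8 passed as higher and 1 as lower (29.1% and 27.4%), and in G2M cells 5 of 9 and 1 (34.7% and 34.6%).

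Hspd1, Hsp90aa1, Hsph1, Hspe1 and Hsp90ab1 had effects in G1 cells that differed from those in G2M cells. On 1 scale for all phases, Hspd1 had 135 and 138 CPM in G1 cells of the control libraries and 328 and 309 CPM in those of butyrate. In G2M cells it had 326, 353, 374 and 348 CPM, so that the groups overlapped there. The fits within each phase gave 1.25 on the log2 scale in G1 (SE 0.07, edgeR adjusted p = 3.30e-19) and of 0.08 in G2M (SE 0.05, edgeR adjusted p = 0.153). The difference of the effects was 1.13 (SE 0.06, edgeR adjusted p = 7.31e-36 for G1 minus G2M in 1 model with the library as a block). Control G1 cells were thus the cells with the lowest Hspd1 level.

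Hsp90aa1 also rose more in G1 than in G2M cells, but unlike Hspd1 it passed as higher in G2M cells too. It had 314, 333, 772 and 710.0 CPM in G1 cells and 932, 968, 1254 and 1238 CPM in G2M cells. Its log2 fold change was 1.23 in G1 (SE 0.07) and 0.39 in G2M (SE 0.04), and the difference was 0.80 (SE 0.05, edgeR adjusted p = 6.86e-32). Hsph1, which did not pass over all cells, had 22.2, 19.8, 42.5 and 44.0 CPM in G1 cells against 50.8, 56.6, 50.8 and 48.7 CPM in G2M cells. It rose by 1.08 in G1 (SE 0.12, edgeR adjusted p = 3.21e-10), had -0.12 in G2M (SE 0.06, edgeR adjusted p = 0.0789), and the difference was 1.17 (SE 0.12, edgeR adjusted p = 5.97e-15). A value near 0 over all cells thus covered a higher level in G1 cells.

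Hspe1 rose in every phase, by 0.89 in G1 (SE 0.07), 0.46 in S (SE 0.05) and 0.48 in G2M (SE 0.05). Its effect in G1 exceeded that in G2M by 0.37 (SE 0.05, edgeR adjusted p = 1.32e-11). Hsp90ab1 passed as higher in G1, with 0.17 (SE 0.06, edgeR adjusted p = 0.0126), and as lower in S, with -0.16 (SE 0.05, edgeR adjusted p = 0.0144), and in G2M, with -0.10 (SE 0.04, edgeR adjusted p = 0.0322). With library totals the G1 value was 0.06 (edgeR adjusted p = 0.420). The difference between G1 and G2M was 0.24 for Hsp90ab1 (SE 0.04, edgeR adjusted p = 1.61e-08). The effects on Hspa8 in the 3 phases were 0.20, 0.25 and 0.24, and G1 minus G2M was -0.07 (SE 0.04, edgeR adjusted p = 0.116). With library totals the Hspa8 effects were 0.09, 0.0065 and 0.04, and none passed (edgeR adjusted p = 0.198, 0.921 and 0.366). Dnajb1 had -0.07 in G1 (edgeR adjusted p = 0.629) and passed in S with 0.22 (SE 0.07, edgeR adjusted p = 0.00982), a call that library totals reverse to -0.02 (edgeR adjusted p = 0.829).

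In all, the log2 fold change with butyrate, its sign included, was higher in G1 than in G2M for 5 of the 9 genes other than Hspb1. It was lower for 0, against 17.5% higher and 20.5% lower among the 12328 genes tested. For Hsp90ab1 this was a change of sign, from -0.10 in G2M to 0.17 in G1, and not a larger effect in the same direction. These 5 calls held with library totals, without G1 cells near the score limit and without each library in turn. For S against G2M, 0 of these 9 genes had a higher and 1 a lower log2 fold change (5.47% and 4.53% of genes). The 1 gene was Hsp90aa1, with a difference of -0.13 (SE 0.04, edgeR adjusted p = 0.0116). Among the 9, Hspa1a and Hspa1b had SEs of 1.47 and 1.27 for G1 minus G2M, so their not passing says little. Beside these results stand the depths of the G1 cells, whose medians were 12365 and 12085 UMIs for control against 18295 and 17778 for butyrate, and the G1 cells within 0.05 of the score limit, 16 and 34 in control, against 88 and 108 with butyrate. The part of cell depth in the G1 result was not tested. Hspb1, Hspa1a and Hspa1b had too few UMIs in G1 cells for a comparison of G1 with G2M. Hspb1 had 0 and 0 UMIs in control G1 cells and 54 and 41 in butyrate. Hspa1a had 0, 2, 5 and 2 UMIs there, and Hspa1b had 1, 1, 5 and 10. Cells with an Hspb1 UMI made up 7.09% and 3.55% of butyrate G1 cells, 3.38% and 3.02% of S cells and 2.68% and 2.28% of G2M cells, with exact intervals that overlapped between G1 and G2M cells in butyrate 2 and not in butyrate 1.

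**Figure D3:**
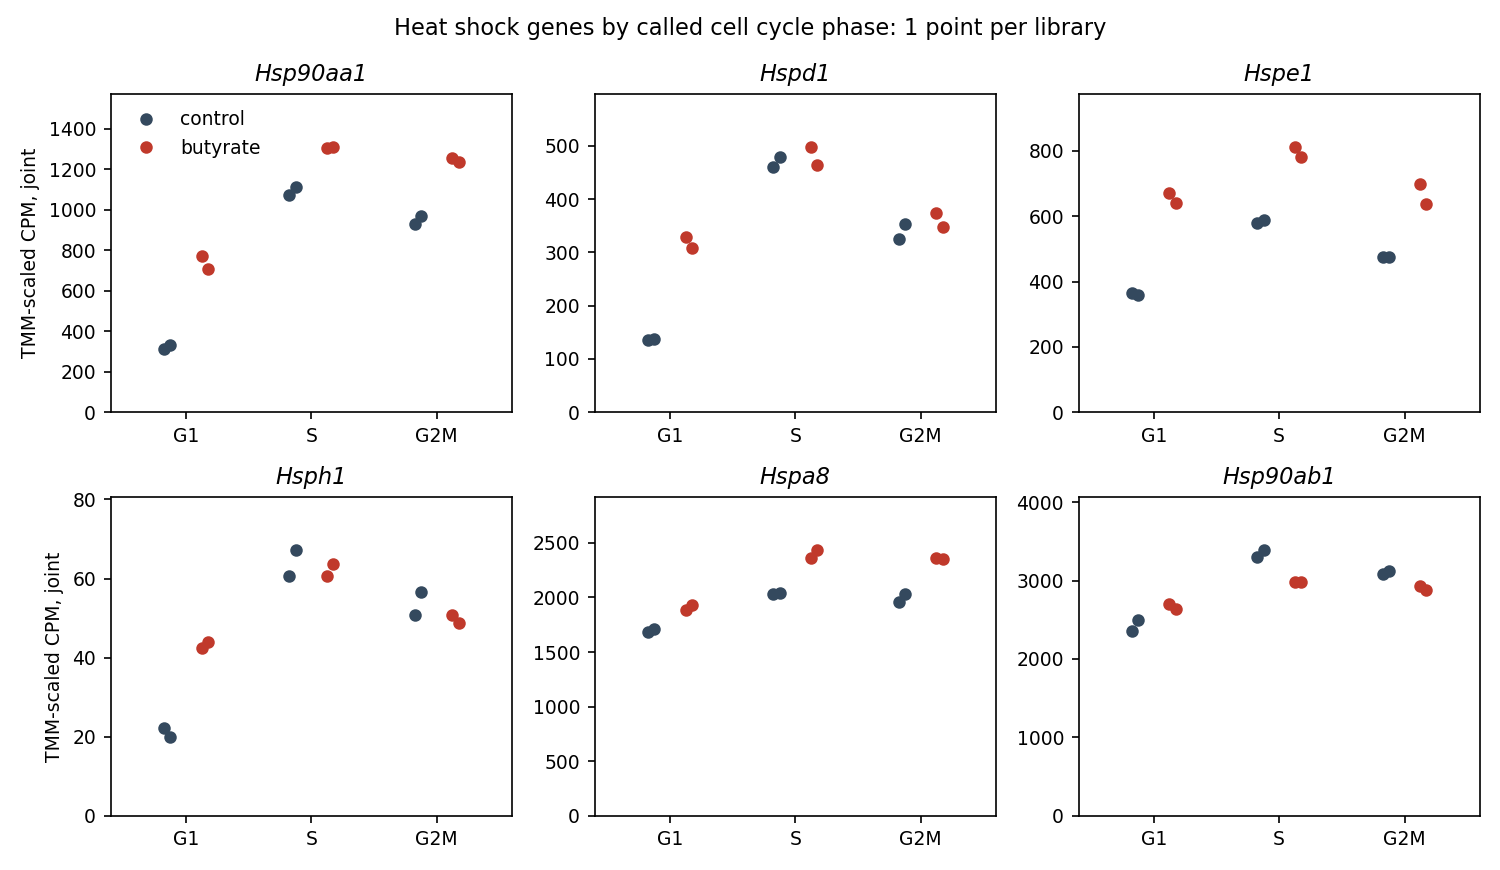
Level of 6 heat shock genes (TMM-scaled CPM on 1 scale for all phases, linear axes from 0) in cells called G1, S or G2M; each point is 1 library. Hspd1 lay at 135 and 138 CPM in control G1 cells against 328 and 309 CPM in butyrate G1 cells, while its groups overlapped in G2M.

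The wider network of heat shock genes was read from lists by the role of each gene, given here by counts of calls and by medians. Of all tested genes, 36.0% passed as higher and 35.7% as lower, with a median of -0.01. With library totals, 3395 of the 13487 tested genes passed as higher and 6710 as lower, so list counts under that scaling stand beside a general shift downward. All 5 tested heat shock factors and partners passed as higher (median 0.26), and 2 with library totals. Hsf1, the main activator of the response, rose by 0.23 (SE 0.06), Hsf2 by 0.26 (SE 0.08) and Hsf4 by 0.71 (SE 0.16). Hsf2bp, known for its role in meiosis, rose by 4.11 (SE 0.46) from 2 and 2 UMIs to 35 and 42. Hsbp1, which binds Hsf1, had 0.19 (SE 0.04), or -0.01 with library totals. Of the other small heat shock proteins 3 of 10 were tested: Hspb11, a part of intraflagellar transport, rose by 0.54 (SE 0.05), Hspb6 fell by 1.01 (SE 0.13), and Hspb9 had 0.45 (SE 0.38, edgeR adjusted p = 0.298).

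Of the other HSP70 and HSP110 genes, 5 of 6 tested passed as higher and 1 as lower (median 0.56). Hspa14, which sits at the ribosome, rose by 0.70 (SE 0.04), and Hspa2, best known from sperm development, rose by 1.29 (SE 0.08). Hspa4l, an HSP110 like Hsph1, fell by 0.53 (SE 0.07). The HSP40 genes other than Dnajb1 were divided, with 5 of 16 higher and 4 lower (median -0.00), or 1 and 9 with library totals. Dnajb14, of the endoplasmic reticulum membrane, rose by 0.92 (SE 0.10), while Dnajc13 and Dnajc5, which act on vesicles, fell by 0.52 (SE 0.06) and 0.32 (SE 0.05). Exchange factors and cofactors of HSP70 had 3 of 11 higher and 5 lower (median -0.01), or 3 and 8 with library totals. Among them Sgta rose by 0.56 (SE 0.05), and Bag2 fell by 0.68 (SE 0.07).

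HSP90 co-chaperones had 9 of 18 higher and 3 lower (median 0.12), or 4 and 8 with library totals. Fkbp5, which acts on HSP90 with steroid receptors, rose by 0.97 (SE 0.04) and Nudc by 0.67 (SE 0.04), while Ahsa2, of the family that speeds the HSP90 cycle, fell by 0.56 (SE 0.05). The cytosolic chaperonin TRiC and its partner prefoldin had 10 of 14 higher and 1 lower (median 0.27), or 6 and 4 with library totals. Prefoldin subunits Pfdn6 and Pfdn2 rose by 0.67 (SE 0.04) and 0.50 (SE 0.04), and the TRiC subunit Cct7 by 0.47 (SE 0.04). Mitochondrial chaperones and proteases other than Hspd1 and Hspe1 had 6 of 16 higher and 7 lower (median -0.06), or 2 and 9 with library totals. Grpel1, the exchange factor of mitochondrial HSP70, rose by 0.76 (SE 0.04) and Hscb, of iron-sulfur cluster assembly, by 0.42 (SE 0.05), while Trap1, the HSP90 of mitochondria, fell by 0.36 (SE 0.05).

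The list of other heat shock targets had 10 of 18 tested genes higher and 6 lower (median 0.14), or 5 and 8 with library totals. That list also holds Rbm3 and Cirbp, which are known to be induced by cold and not by heat. Both are among the 6 lower genes, with -0.11 and -0.19. Hmox1, which breaks down heme, rose by 1.82 (SE 0.08), Ier5, a partner of Hsf1, by 0.62 (SE 0.04), and Sqstm1, an autophagy receptor, by 0.37 (SE 0.05). Immediate early genes, which handling of cells can raise, had 10 of 18 higher and 4 lower (median 0.27), or 8 and 7 with library totals. Their summed level was 1534 and 1461 CPM in control, against 1728 and 1744 CPM with butyrate. Myc rose by 1.07 (SE 0.06) and Ier2 by 0.37 (SE 0.05), while Btg2 fell by 0.68 (SE 0.05). The part of handling in the changes of the heat shock genes was not tested.

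**Figure D4:**
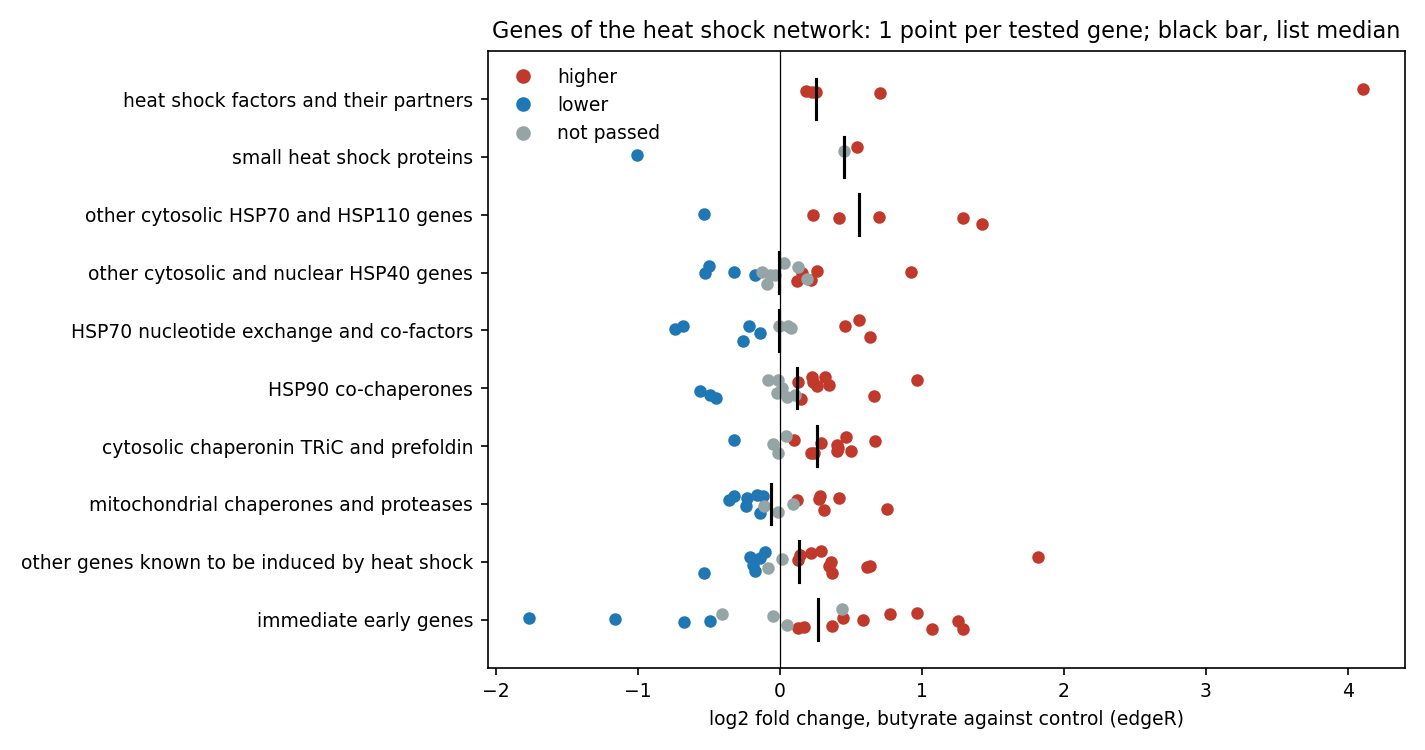
Log2 fold changes (butyrate over control, edgeR with TMM) of tested genes in 10 lists around the heat shock genes; red passed as higher, blue as lower, grey did not pass, and black bars are medians. Medians run from -0.06 for mitochondrial chaperones to 0.56 for other HSP70 and HSP110 genes. With library totals, lower calls outnumber higher ones among HSP40 genes, HSP90 co-chaperones and other heat shock targets, and Hsbp1 moves to -0.01. The same holds among all tested genes under that scaling, with 6710 lower and 3395 higher. The row of genes known to be induced by heat shock also holds the cold-induced Rbm3 and Cirbp.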

How the data were processed

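The authors deposited unfiltered UMI counts, gene by barcode, for each library; per the submitters' processing notes, Cell Ranger 4, Seurat 4.3 and the mm10 build were used. Neither the annotation release nor the treatment of intronic reads is given in the sources used here. Coordinates come from GENCODE M21 (GRCm38), matched by gene ID.

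Barcodes were kept with at least 10% of the 99th percentile of UMIs of the top 3000 barcodes (limits of 6202 to 6644 UMIs), at least 500 genes and under 10% mitochondrial UMIs. No doublet was removed; leaving out the top 2% of cells by UMIs was an alternative. UMI sums of each library went into edgeR 4.0.16 under R 4.3.3 (TMM, filterByExpr, robust quasi-likelihood test, Benjamini-Hochberg), with DESeq2 1.42.0 as an alternative; the SE is the log2 fold change over the square root of F. The methods were tested on simulated data. The replicate is the culture, 2 per group, so p-values lean on spread pooled over genes and do not carry over to other mice. The labels tie libraries of the same number to a mouse; the deviations of such libraries from their group means correlated at 0.132 across 13487 genes. Phases were called with scanpy 1.11.5 on cells thinned to 8000 UMIs, which left out 54 to 112 cells a library. The test of differences between phases was added after seeing the data.

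All 10 genes are named, as are the 3 genes of smallest p in each list, except that some are not reported here; Hsf1 and Hsf2 were named after their values were seen. The genes and lists were chosen with earlier results of these data known.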

Additional observations from a re-analysis of the deposited data

Results flagged for a closer look

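The effect of butyrate differed between cells called G1 and cells called G2M for 5 genes, by a test of the difference itself in edgeR: by 1.17 on the log2 scale for Hsph1, 1.13 for Hspd1, 0.80 for Hsp90aa1, 0.37 for Hspe1 and 0.24 for Hsp90ab1. Between S and G2M cells the effect on Hsp90aa1 differed by -0.13. Hspb1 UMIs were also found in droplets without a cell, which the comparisons do not use: 10 in butyrate 1 and 14 in butyrate 2, against 0 in both control libraries.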

How the results depend on the processing

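Hspa1a, Hspa1b, Hsp90aa1 and Hspe1 kept their direction and call over all cells under each of the 14 to 16 alternatives run for them. The count of genes passing as lower was 2 with library totals, and 0 with DESeq2 size factors, DESeq2, all barcodes with at least 1000 UMIs, thinning to 8000 UMIs, the top 2% of cells left out and high mitochondrial barcodes kept; it was 0 in each fit without 1 library. Hsp90ab1 lost its call in 10 of 16 alternatives. With the mouse as a replicate block, no call of the 9 genes other than Hspb1 changed over all cells, and Hsp90ab1 had an adjusted p of 0.00625.

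With library totals, signs turned for Dnajb1 (-0.10 over all cells, -0.021 in S, -0.097 in G2M), Hspd1 (-0.034, -0.19 and -0.11), Hsbp1 (-0.012) and the G1 minus G2M difference of Hspa8 (0.047). Library totals also gave 3395 genes higher and 6710 lower over all cells, and 2074 higher and 5561 lower in S cells. Hspb1 left aside, only Hspa1b and Hspe1 of the heat shock genes then passed as higher in S. Those passing as lower numbered 3 in S and 2 in G2M. Hsph1, with a log2 change near 0, turned to 0.0038 with DESeq2 size factors, 0.0041 with DESeq2, 0.021 without the top 2% of cells, 0.0098 with high mitochondrial barcodes and 0.15 in thinned cells (edgeR adjusted p = 0.0475); without 1 library it ran from -0.093 to 0.066, the highest without control 2. Dnajb1 passed without butyrate 1 (0.15, edgeR adjusted p = 0.0404). Heat shock genes with lower shares of cells numbered 1 at 4000 UMIs and 2 with at least 2 UMIs required. The cause of these shifts was not tested. Depth limits Hspb1, Hspa1a and Hspa1b, which had at most 265 UMIs a library.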
